A study of Mus musculus with 2 samples.

Results

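The passenger arms described here are the minor products of 46 microRNA (miRNA) hairpins that belong to families common in most mouse cells. They were chosen by name, from a list of the arm taken as the minor one of each hairpin. All 46 had a probe among the 1900 miRNA probes of the array. Their 44 guide arms, the major products of the same hairpins, were on the array too, and the hairpins of miR-24 and miR-30c each contributed a pair of passenger arms to 1 guide probe. The samples were B16 cells, a mouse melanoma line, transfected with Fam222B-siRNA or with Control-siRNA, both with Lipofectamine RNAiMAX after 24 h in medium with 5% serum, and lysed for total RNA 48 h later. Each group had 1 Cy5-labelled 1-colour array (n = 1), so values carry no replicate error and the groups could not be tested against each other. The small number of arrays limits the precision of each comparison. The probes read miRNAs, and the Fam222B transcript itself was not analysed here.

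A miRNA hairpin is cut by Drosha and Dicer into a short duplex of a 5p and a 3p strand. One strand, the guide, is kept by an Argonaute protein and directs it to mRNAs that match the seed, bases 2 to 8 of the guide. The other strand, the passenger, is mostly discarded and degraded, so its level beside the guide is a readout of strand choice and of strand stability. Some hairpins keep both strands, and which strand dominates can differ between tissues.

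Net signal is the median brightness of a spot minus the mean of the 896 blank spots of its array, in scanner intensity units. The blank spots had an SD of 1.66 units on the Fam222B-siRNA array and 1.54 units on the Control-siRNA array. Detection of a miRNA meant a spot above the mean plus 2 SD of the blank spots after the extreme 5% at each end had been left out. The lowest detected net signals were 2.60 units on the Fam222B-siRNA array and 2.28 units on the Control-siRNA array. The melanocyte miRNA miR-211-5p, which marks the lineage of these cells, gave 326 units in Fam222B-siRNA cells and 264 units in Control-siRNA cells. The other listed melanocyte miRNA, miR-204-5p, was dimmer and lower in Fam222B-siRNA cells, at 30.2 units against 36.3 units in Control-siRNA cells.

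The sequences below are mature miRNAs from RefSeq (build GRCm38.p6), which held 44 of the 46 passenger arms and 41 of the 44 guide arms. They are the brightest passenger arms with their partners, miR-29b-1-5p with its partner, and 2 near copies of a bright arm, which show how like the probes' targets are. Each is written 5′ to 3′ with the seed in capitals, and the prefix mmu for mouse is left out where a name recurs.
mmu-miR-125a-3p (passenger): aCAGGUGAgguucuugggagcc
mmu-miR-125a-5p (guide): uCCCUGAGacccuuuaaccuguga
mmu-miR-125b-1-3p (passenger): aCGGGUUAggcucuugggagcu
mmu-miR-31-3p (passenger): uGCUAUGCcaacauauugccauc
mmu-miR-31-5p (guide): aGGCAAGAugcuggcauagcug
mmu-miR-30a-3p (passenger): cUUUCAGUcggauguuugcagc
mmu-miR-30e-3p (passenger): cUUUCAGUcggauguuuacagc
mmu-miR-30a-5p (guide): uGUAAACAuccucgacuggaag
mmu-miR-30e-5p (guide): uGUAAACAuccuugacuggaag
mmu-miR-17-3p (passenger): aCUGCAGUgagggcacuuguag
mmu-miR-17-5p (guide): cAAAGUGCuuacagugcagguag
mmu-miR-24-2-5p (passenger): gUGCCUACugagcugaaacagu
mmu-miR-24-1-5p (passenger): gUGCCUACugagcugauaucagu
mmu-miR-24-3p (guide): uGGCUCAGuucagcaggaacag
mmu-miR-106b-3p (passenger): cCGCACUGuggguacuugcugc
mmu-miR-106b-5p (guide): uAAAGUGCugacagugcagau
mmu-miR-29b-1-5p (passenger): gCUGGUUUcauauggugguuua
mmu-miR-29b-3p (guide): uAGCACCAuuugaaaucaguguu

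The passenger arms shared seeds less broadly than their partners. Among 44 passenger arms there were 38 seeds, and 12 arms shared theirs with another, in 6 pairs such as miR-30a-3p with miR-30e-3p and miR-24-1-5p with miR-24-2-5p. Among 41 guide arms there were 20 seeds, and 31 arms shared theirs, the 6 let-7 guides forming the widest set. Passenger arms began with A in 19, C in 17, G in 6 and U in 2 of 44 cases. Guide arms began with U in 28, C in 7 and A in 6 of 41 cases, and none began with G. Over the 1614 mature miRNAs of the array that RefSeq held, 25.5% began with A, 21.1% with C, 12.9% with G and 40.5% with U. The median GC content was 50% for passenger arms, 45.5% for guide arms and 52.2% over the same 1614. Among the first 4 bases, the guide arm had more A or U than its partner in 19 of 43 hairpins, the counts were equal in 12, and the passenger arm had more in 12. These counts describe reference sequences and not the samples. The hairpins were listed by family, so the wide sharing of guide seeds follows in part from how they were chosen.

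Most passenger arms gave little or no signal. Net signal stayed under 10 units on both arrays for 38 of 46, and the median was 3.20 units on the Fam222B-siRNA array and 4.06 units on the Control-siRNA array. The 44 guide arms had medians of 237 units in Fam222B-siRNA cells and 222 units in Control-siRNA cells. In Fam222B-siRNA cells 25 passenger arms (54.3%) were detected, where 50.4% of all 1900 probes were. In Control-siRNA cells 32 (69.6%) were detected, where 64.2% of all probes were. Both arrays detected 24 of the 46, beside 47.9% of all probes, and 13 were detected on neither. In bulk RNA, fewer cells with a miRNA and less of it per cell cannot be told apart. The share of passenger arms detected was thus near that of any probe on the array, although 43 of their 44 guide arms were detected on both arrays.

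On the Control-siRNA array, most markers of other tissues were detected as well. Of 12 marker miRNAs of blood, muscle, liver, epithelium and neurons, 3 were detected in Fam222B-siRNA cells and 10 in Control-siRNA cells, with summed net signals of 23.2 units in Fam222B-siRNA cells and 48.9 units in Control-siRNA cells. Apart from miR-451a, a red blood cell miRNA at 12.2 units in Fam222B-siRNA cells and 13.5 units in Control-siRNA cells, they lay between -1.24 and 3.66 units in Fam222B-siRNA cells and between 0.280 and 5.63 units in Control-siRNA cells. Passenger arms above the highest of these other 11 markers numbered 22 in Fam222B-siRNA cells, 14 in Control-siRNA cells and 13 on both arrays. Of all probes, 44.2% on the Fam222B-siRNA array and 38.5% on the Control-siRNA array lay above the same levels. Whether the dim passenger signals come from the named strand was not tested.

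**Figure D1:**
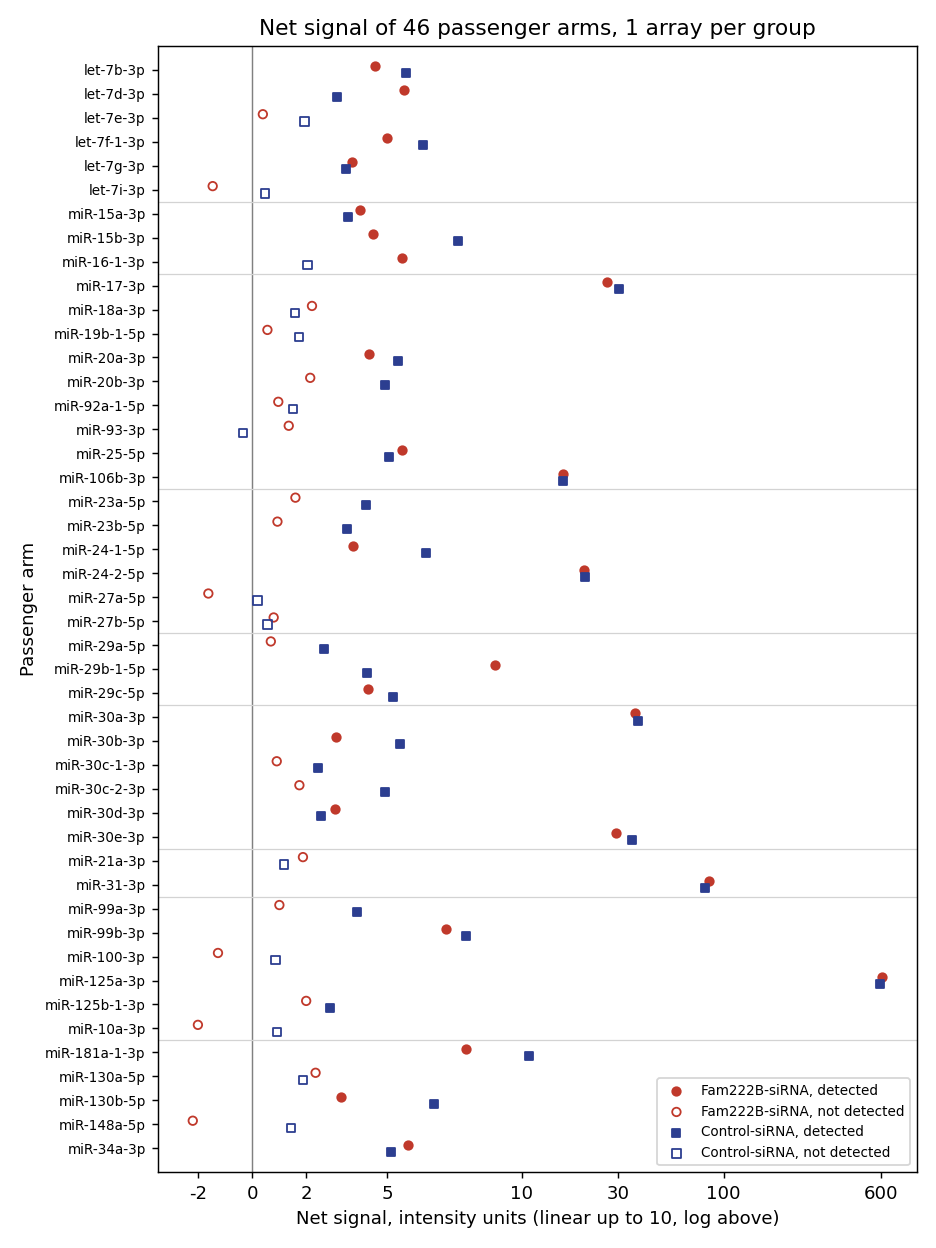
Net signal in intensity units (x axis, linear up to 10 and logarithmic above) of each of the 46 passenger arms (rows, grouped by family), with circles for the Fam222B-siRNA array and squares for the Control-siRNA array, filled where the arm was detected. miR-125a-3p, at 608 units in Fam222B-siRNA cells and 592 units in Control-siRNA cells, stands farthest to the right, and 38 arms stay under 10 units on both arrays.

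Among the passenger arms, mmu-miR-125a-3p gave by far the highest signal. Its net signal was 608 units in Fam222B-siRNA cells and 592 units in Control-siRNA cells, which placed it at rank 22 in Fam222B-siRNA cells and rank 24 in Control-siRNA cells among all 1900 miRNA probes. Its partner miR-125a-5p, a relative of the lin-4 miRNA of worms, gave 52.0 units in Fam222B-siRNA cells and 48.5 units in Control-siRNA cells. The arm named as passenger was therefore the brighter one, by 11.7-fold on the Fam222B-siRNA array and 12.2-fold on the Control-siRNA array. The guide probe is printed in block 18, one of 4 blocks taken up below, and both arms shifted alike between arrays, by log2 differences of 0.16 for the passenger and 0.22 for the guide. Such a ratio compares a pair of different probes and carries their affinities, so it is not a ratio of molecules. Across the array a brighter 3p arm was common, in 225 of 546 hairpins with a ratio on the Fam222B-siRNA array and 274 of 660 on the Control-siRNA array.

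On chromosome 17 the passenger arms of miR-99b (chr17:17830232-17830253), let-7e (chr17:17830411-17830432) and miR-125a (chr17:17830855-17830876) lie within the bounds of the protein-coding gene Spaca6. The table used gives gene bounds only, so exon or intron was not assigned. mmu-miR-99b-3p gave 7.2 units in Fam222B-siRNA cells and 7.93 units in Control-siRNA cells. let-7e-3p was detected on neither array, at 0.397 units in Fam222B-siRNA cells and 1.95 units in Control-siRNA cells. miR-125b-1-3p, from chromosome 9, gave 2.0 units in Fam222B-siRNA cells, where it was not detected, and 2.91 units in Control-siRNA cells. These are signals of different probes, whose affinities were not measured, so they do not rank the arms by amount. Set without gaps against miR-125a-3p, miR-125b-1-3p has the same base at 18 of 22 positions and differs by A3G, G7U, U11C and C22U, counted from the 5′ end with the miR-125a-3p base first.

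mmu-miR-31-3p gave the next highest signal. It comes from a hairpin on chromosome 4 whose guide, miR-31-5p, is known for roles in invasion and metastasis. Net signal was 84.9 units in Fam222B-siRNA cells and 80.8 units in Control-siRNA cells, with the guide at 625 units in Fam222B-siRNA cells and 590 units in Control-siRNA cells. The guide to passenger ratio was 7.36 on the Fam222B-siRNA array and 7.30 on the Control-siRNA array, so with the blank background both arms stood in nearly the same proportion on the 2 arrays.

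Across the miR-30 family, which is known for restraining the epithelial to mesenchymal transition, the passenger probes gave a bright and a dim set of signals. mmu-miR-30a-3p gave 36.6 units in Fam222B-siRNA cells and 37.7 units in Control-siRNA cells, and miR-30e-3p gave 29.5 units in Fam222B-siRNA cells and 35.3 units in Control-siRNA cells. Both have the seed shown in capitals above and differ at 1 of 22 positions, by G18A with the miR-30a-3p base first, and whether their probes tell them apart was not tested. miR-30b-3p (3.12 units in Fam222B-siRNA cells and 5.51 units in Control-siRNA cells) and miR-30d-3p (3.08 units in Fam222B-siRNA cells and 2.57 units in Control-siRNA cells) were detected on both arrays at a low level. miR-30c-1-3p and miR-30c-2-3p were detected in Control-siRNA cells alone, at 2.44 and 4.91 units there. The guide arms of these hairpins were all bright, between 160 and 616 units in Fam222B-siRNA cells and between 153 and 655 units in Control-siRNA cells. The ratios accordingly ran from 5.42 for miR-30e to at least 237 for both miR-30c hairpins on the Fam222B-siRNA array, and from 4.33 for miR-30e to 251 for miR-30c-1 on the Control-siRNA array.

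The miR-17-92 cluster and its paralogues, known for promoting proliferation, gave bright and dim passenger signals within a cluster, again from different probes. From the cluster on chromosome 14, miR-17-3p gave 26.5 units in Fam222B-siRNA cells and 30.4 units in Control-siRNA cells, and miR-20a-3p gave 4.32 units in Fam222B-siRNA cells and 5.41 units in Control-siRNA cells. miR-18a-3p, miR-19b-1-5p and miR-92a-1-5p were detected on neither array, although the guide arms miR-18a-5p and miR-19b-3p had 60.3 and 283 units in Fam222B-siRNA cells. The guide miR-17-5p had 365 units in Fam222B-siRNA cells and 354 units in Control-siRNA cells, a guide to passenger ratio of 13.8 in Fam222B-siRNA cells and 11.7 in Control-siRNA cells. One passenger arm of this cluster was thus well above background and the other 4 were dim or not detected. In the cluster within the bounds of Mcm7, a replication licensing gene on chromosome 5, miR-106b-3p gave 16.1 units in Fam222B-siRNA cells and 16 units in Control-siRNA cells. miR-25-5p gave 5.55 units in Fam222B-siRNA cells and 5.09 units in Control-siRNA cells, and miR-93-3p was detected on neither array. miR-20b-3p, from the X chromosome, gave 2.16 units in Fam222B-siRNA cells, where it was not detected, and 4.93 units in Control-siRNA cells.

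Both miR-24 hairpins yield the same guide, miR-24-3p, which had 312 units in Fam222B-siRNA cells and 308 units in Control-siRNA cells. miR-24-2-5p, from the miR-23a cluster on chromosome 8, gave 20.3 units in Fam222B-siRNA cells and 20.7 units in Control-siRNA cells. miR-24-1-5p, from the miR-23b cluster on chromosome 13, gave 3.74 units in Fam222B-siRNA cells and 6.47 units in Control-siRNA cells. The 2 probes may differ in affinity, so these signals do not show that the arms differ in amount. The arms share their seed and their first 16 bases, and without gaps they differ at 5 of 22 positions. Of the other arms of these clusters, whose guides are widely expressed, miR-23a-5p and miR-23b-5p were detected in Control-siRNA cells alone, at 4.23 and 3.52 units there. miR-27a-5p and miR-27b-5p were detected on neither array.

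The let-7 hairpins, whose guides restrain growth genes such as Ras and Hmga2, had wide gaps between arms. Their guides lay between 195 and 824 units in Fam222B-siRNA cells and between 213 and 774 units in Control-siRNA cells. let-7i-3p and let-7e-3p were detected on neither array. The 6 passenger arms lay between -1.47 and 5.64 units on the Fam222B-siRNA array and between 0.474 and 6.33 units on the Control-siRNA array, and 4 were detected on each. let-7b-3p gave 4.56 units in Fam222B-siRNA cells and 5.70 units in Control-siRNA cells, and let-7f-1-3p gave 5.01 units in Fam222B-siRNA cells and 6.33 units in Control-siRNA cells. let-7g-3p gave 3.70 units in Fam222B-siRNA cells and 3.50 units in Control-siRNA cells. The guide of let-7b was 181 times its passenger arm on the Fam222B-siRNA array and 133 times on the Control-siRNA array.

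Among the miR-15 and miR-16 hairpins, whose guides target Bcl2 and cyclin mRNAs, miR-15b-3p gave 4.48 units in Fam222B-siRNA cells and 7.62 units in Control-siRNA cells. miR-15a-3p gave 4.02 units in Fam222B-siRNA cells and 3.56 units in Control-siRNA cells. miR-16-1-3p was the only 1 of the 46 detected in Fam222B-siRNA cells alone, at 5.55 units against 2.06 units in Control-siRNA cells. All of these lay under 10 units. Of the miR-29 hairpins, whose guides target collagen mRNAs, miR-29c-5p gave 4.32 units in Fam222B-siRNA cells and 5.24 units in Control-siRNA cells. miR-29a-5p was detected in Control-siRNA cells alone, at 2.68 units there. miR-29b-1-5p is taken up below with the differences between arrays.

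The remaining passenger arms were dim. miR-181a-1-3p, whose guide tunes T cell receptor signalling, gave 7.94 units in Fam222B-siRNA cells and 10.8 units in Control-siRNA cells. miR-34a-3p, from a hairpin that p53 activates, gave 5.77 units in Fam222B-siRNA cells and 5.15 units in Control-siRNA cells. Both differed between arrays by less than 2 spot SD. miR-130b-5p, whose guide shares a seed with miR-130a-3p, gave 3.28 units in Fam222B-siRNA cells and 6.75 units in Control-siRNA cells. miR-21a-3p was detected on neither array, at 1.89 units in Fam222B-siRNA cells and 1.18 units in Control-siRNA cells. Its partner miR-21a-5p, an oncogenic miRNA, had 319 units in Fam222B-siRNA cells and 313 units in Control-siRNA cells. miR-130a-5p, miR-100-3p and miR-10a-3p were also detected on neither array. miR-99a-3p was detected in Control-siRNA cells alone, at 3.90 units there. Neither miR-148a-5p nor its guide was detected on either array, so that hairpin has no ratio.

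Guide to passenger ratios could be formed for 45 hairpins on each array. Where the passenger arm was not detected, the ratio is a lower bound, the guide over the passenger's own value or the array's lowest detected signal, whichever was higher, which held for 20 hairpins on the Fam222B-siRNA array and 13 on the Control-siRNA array. With bounds in place, the median ratio was at least 42.4 in Fam222B-siRNA cells and at least 49.2 in Control-siRNA cells. On each array the guide was at least 10 times its passenger arm in 38 of 45 hairpins (84.4%), and miR-125a was the only hairpin with the brighter passenger. Over all hairpins with a ratio, the brighter arm was at least 10 times the dimmer one in 22% of 546 on the Fam222B-siRNA array and 18.5% of 660 on the Control-siRNA array. The families were listed as abundant ones, so a wide gap between arms follows in part from how they were chosen. For 9 guide arms RefSeq lists more than 1 locus, and such a guide signal may come from several hairpins. Guide and passenger levels were only weakly related. Across the 46 pairs Spearman's rho was 0.180 on the Fam222B-siRNA array and 0.135 on the Control-siRNA array, a description across probes of 1 array that share its background.

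**Figure D2:**
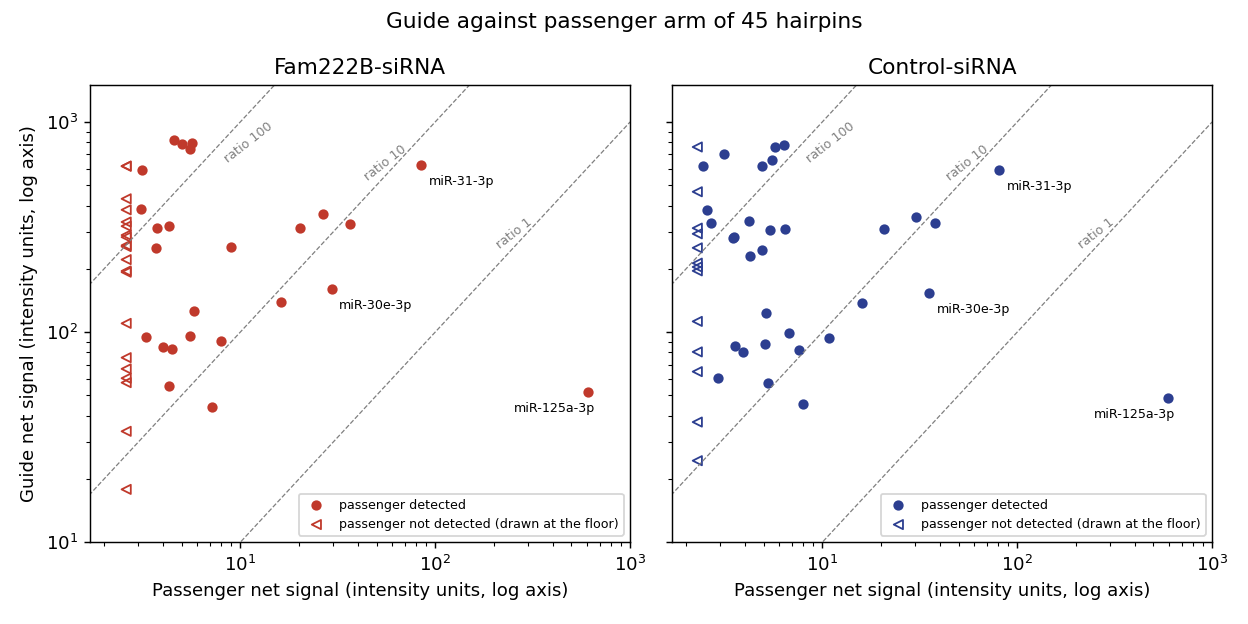
Net signal of the guide arm (y axis) against the passenger arm of the same hairpin (x axis), in intensity units on log axes, for the Fam222B-siRNA array (left) and the Control-siRNA array (right); open triangles are hairpins whose passenger was not detected, drawn at the array's floor, and dashed lines mark ratios of 1, 10 and 100. miR-125a lies below the line of equal signal on both arrays, and 38 of 45 hairpins have a ratio of at least 10 on each.

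The comparison between arrays asked whether passenger arms, or the balance of guide and passenger, differed after Fam222B-siRNA. Net signals were scaled so that the median ratio over the 910 miRNAs detected on both arrays was 1, which took a factor of 0.921 for Fam222B-siRNA over Control-siRNA. On this scale 12 of the 24 passenger arms detected on both arrays were higher and 12 lower in Fam222B-siRNA cells, with a median log2 difference of 0.03. One, miR-29b-1-5p, passed 2-fold upward and none passed it downward, where 2.97% of all 910 miRNAs were higher and 2.42% lower by that much. Spot SDs were built from control probes printed 8 times and from the blank spots, and they cover spread within an array only. By more than 2 spot SD, miR-29b-1-5p alone was higher and none was lower, where 7.8% of the 910 were higher and 1.76% lower. At 1.5-fold, 2 arms were higher and 4 lower, where 7.14% of the 910 were higher and 8.57% lower. The counts are small, and they compare 2 arrays and not 2 treatments.

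With the blank spots as background, the bright passenger arms differed little. The 7 arms over 10 units on both arrays had log2 differences between -0.14 and 0.19, each within 2 spot SD. The highest was miR-31-3p (0.19, spot SD 0.104), followed by miR-125a-3p (0.16, spot SD 0.0965). The lowest was miR-30e-3p (-0.14, spot SD 0.141). The guides of the passenger arms leaned upward on the same scale, 37 of 43 being higher in Fam222B-siRNA cells with a median of 0.13. The median was 0.14 over all 96 miRNAs that reached 100 units on both arrays, so bright miRNAs in general lay above 0.

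The files' own column of local background gave other values for the same bright arms. With it the log2 difference was -2.06 for miR-24-2-5p, 1.37 for miR-106b-3p, -0.63 for miR-125a-3p and -0.48 for miR-31-3p, so 3 of these 4 turned to lower in Fam222B-siRNA cells. Both miR-24-2-5p and miR-106b-3p then passed 2-fold, where 9.35% of 1380 miRNAs were that much higher and 10.3% lower. miR-17-3p, miR-30a-3p and miR-30e-3p were no longer detected on both arrays. The column was high at bright spots, at 275 units for miR-125a-3p in Fam222B-siRNA cells and 175 units in Control-siRNA cells, where it averaged 60.2 units at the blank spots of the Fam222B-siRNA array and 65.9 units at those of the Control-siRNA array. The blank spots themselves lay above it, by 9.68 units on the Fam222B-siRNA array and 4.34 units on the Control-siRNA array. How the column was made is not given in the sources, and the small differences of the bright arms hold for the blank background and not for this one.

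The dim passenger arms scattered widely around 0. In the 17 arms that averaged under 10 units, log2 differences ran from -0.92 (miR-130b-5p) to 1.2 (miR-29b-1-5p), with spot SDs between 0.377 and 1.17. Their median absolute difference was 0.29, against 0.37 for the 451 miRNAs of that brightness on the array. Of those 451, 3.99% were 2-fold higher and 4.66% 2-fold lower in Fam222B-siRNA cells, beside 1 and 0 of the 17. Lower values in Fam222B-siRNA cells were also found for miR-30b-3p (-0.70), miR-24-1-5p (-0.67) and miR-15b-3p (-0.65), each within 2 spot SD.

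miR-29b-1-5p, the passenger arm of a hairpin on chromosome 6, gave 9.0 units in Fam222B-siRNA cells and 4.26 units in Control-siRNA cells. Its log2 difference was 1.2 with a spot SD of 0.593, a 2.29-fold higher signal. It was 1.03 with the blank spots of the probe's own block as background, an alternative chosen after seeing the data, 0.36 with the files' column of local background and 0.13 after normexp correction with an offset of 50, and at a detection limit of 5 SD the arm was not detected on both arrays. The guide, miR-29b-3p, was at 253 units in Fam222B-siRNA cells and 231 units in Control-siRNA cells (log2 difference 0.25). The probe of miR-29b-1-5p lies in block 26 of the 32 printed blocks, where the median miRNA spot was at 5.76 units on the Fam222B-siRNA array and 3.09 units on the Control-siRNA array. All blocks together gave 2.64 units on the Fam222B-siRNA array and 3.75 units on the Control-siRNA array. The blank spots of that block were at 0.002 units on the Fam222B-siRNA array and -0.510 units on the Control-siRNA array, relative to each array's mean. let-7d-3p (5.64 units in Fam222B-siRNA cells and 3.13 units in Control-siRNA cells, log2 difference 0.97) and miR-30d-3p (0.38) are printed in the same block. All 3 passenger arms of block 26 that were detected on both arrays were thus higher in Fam222B-siRNA cells, and the part of the block in this was not tested. Outside blocks 17, 18, 25 and 26, which an earlier examination of these data had marked for dim spots that gained signal, 9 of 21 passenger arms were higher and 12 lower, between -0.92 and 0.29. As those blocks were picked for such gains in these same data, this split cannot serve as a contrast with block 26.

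Arms detected on 1 array only have bounds in place of differences. In Control-siRNA cells alone 8 passenger arms (17.4%) were detected, where 16.3% of all probes were, and 1 was in Fam222B-siRNA cells alone, where 2.53% of all probes were. The gap in detection between arrays varied with the background. It was absent with the spots named No Probe as background, where 33 passenger arms were detected on each array. It stayed with the blank spots of each block, an alternative chosen after seeing the data, at 24 in Fam222B-siRNA cells and 32 in Control-siRNA cells. With the local background column 39 were detected in Fam222B-siRNA cells and 40 in Control-siRNA cells. The share of all probes detected on each array was not computed for these 3 backgrounds. Whether the gap varied more or less for passenger arms than for any probe is therefore not known. The 8 arms lay between 0.693 and 2.16 units on the Fam222B-siRNA array and between 2.44 and 4.93 units on the Control-siRNA array. For 6 of them the bound was a signal at least 1.03-fold to 1.75-fold lower in Fam222B-siRNA cells, and miR-29a-5p and miR-30c-1-3p gave no fold. For miR-16-1-3p the bound was a signal at least 2.64-fold higher in Fam222B-siRNA cells. These bounds leave out spot error and were not set against 2 spot SD. The spot SD of miR-16-1-3p was 1.68 units at 5.55 units in Fam222B-siRNA cells, and 1.54 units at 2.06 units in Control-siRNA cells. Its guide miR-16-5p, which is also made from a hairpin on chromosome 3, was at 741 units in Fam222B-siRNA cells and 760 units in Control-siRNA cells.

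With the blank background, the guide to passenger ratio changed by less than 2-fold in each of the 24 hairpins in which both arms were detected on both arrays. The change is log2 of the ratio on the Fam222B-siRNA array minus that on the Control-siRNA array. Probe affinity and a scale factor common to all spots of an array cancel in it. A tilt with brightness does not cancel, and the median log2 difference was 0.14 over the 96 miRNAs of 100 units or more. Of the 241 hairpins on the array with such a value, 3.32% passed 2-fold upward and 5.39% downward, taken as brighter over dimmer arm. None of the 24 lay beyond 2 spot SD, where 2.9% of the 241 were higher and 2.07% lower. At 1.5-fold, 4 were higher and 2 lower, where 14.5% of the 241 were higher and 13.3% lower. The ratio was higher in Fam222B-siRNA cells in 18 hairpins and lower in 6, with a median change of 0.07 beside 0.06 over the 241. How many of the 241 were higher was not counted, so the 18 and 6 are not set apart from the array as a whole. With the local background column, an alternative chosen for the ratios after seeing the data, 17 hairpins had a value, of which 1 passed 2-fold upward and 12 downward, with a median change of -1.79. Among them were miR-31 (-3.69), whose guide then had 21.0 units in Fam222B-siRNA cells and 296 units in Control-siRNA cells, and miR-106b (-1.09). The share of all hairpins past 2-fold with this column was not computed, so these counts are not set apart from the array as a whole.

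The spread was narrow where the passenger was bright. With the blank background, in the 7 hairpins with a passenger arm over 10 units, the change ran from 0.004 for miR-106b to 0.32 for miR-30e. miR-31 (0.01, spot SD 0.142), miR-30a (0.03, spot SD 0.163), miR-24-2 (0.05, spot SD 0.210) and miR-125a (0.06, spot SD 0.151) lay close to 0. miR-17 (0.24, spot SD 0.179) and miR-30e (0.32, spot SD 0.172) lay above 0 within 2 spot SD. In the 17 hairpins with a dimmer passenger the change ran from -0.95 for miR-29b-1 to 0.97 for miR-130b, with a median absolute change of 0.38 beside 0.39 over the 182 hairpins of like brightness. The guide of miR-29b-1 was 28.1 times its passenger arm in Fam222B-siRNA cells and 54.2 times in Control-siRNA cells. For miR-130b the ratio was 28.8 in Fam222B-siRNA cells and 14.6 in Control-siRNA cells.

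**Figure D3:**
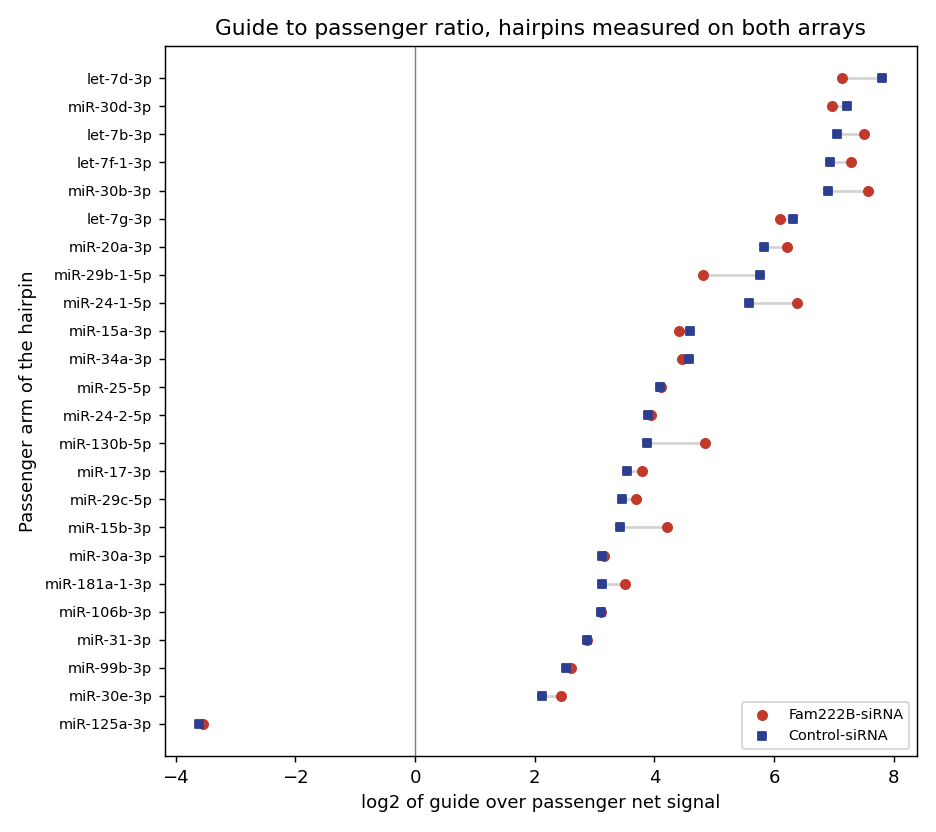
log2 of guide over passenger net signal over the blank background (x axis) for the 24 hairpins with both arms detected on both arrays (rows, sorted by the Control-siRNA value), with circles for Fam222B-siRNA and squares for Control-siRNA. miR-125a alone lies left of 0, and the circle and square of miR-31, miR-30a and miR-106b nearly coincide.

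**Figure D4:**
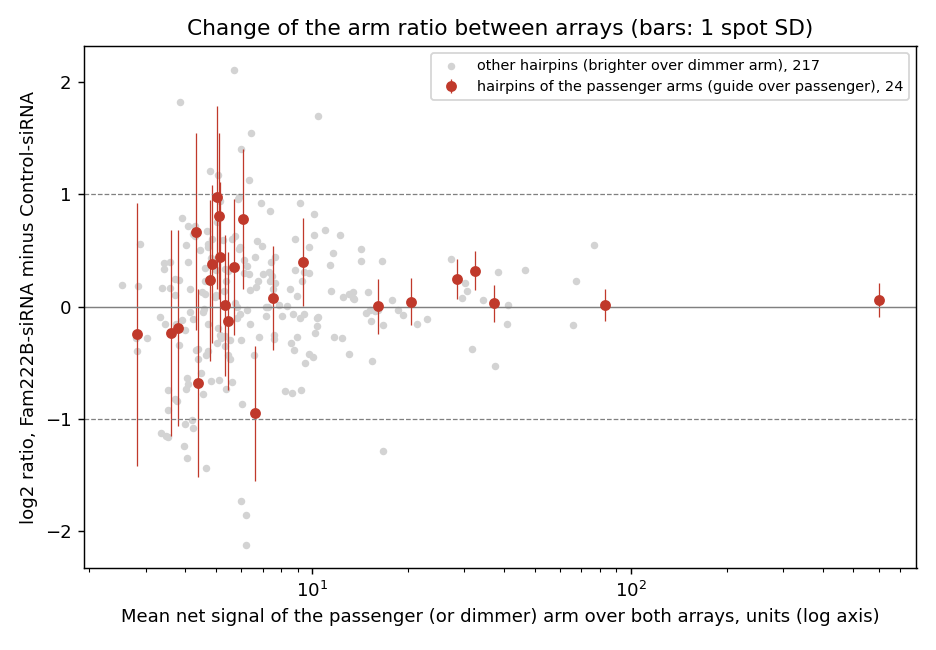
Change of the log2 arm ratio, Fam222B-siRNA minus Control-siRNA (y axis), against the mean net signal of the passenger arm (x axis, log scale) for 24 hairpins with bars of 1 spot SD, over the array's other hairpins in grey (brighter over dimmer arm, against the dimmer arm's signal). Dashed lines mark 2-fold, which none of the 24 passes.

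A further 34 passenger arms of related hairpins, listed beside the 46, were mostly dim too. Of all 1900 probes, 50.4% were detected in Fam222B-siRNA cells, 64.2% in Control-siRNA cells and 47.9% on both arrays. These arms were read by 33 probes, of which 12 were detected in Fam222B-siRNA cells, 19 in Control-siRNA cells and 10 on both arrays. Of these 10, 5 were higher and 5 lower in Fam222B-siRNA cells, with a median log2 difference of -0.06. The highest difference was that of miR-22-5p (0.25), at 24.0 units in Fam222B-siRNA cells and 21.8 units in Control-siRNA cells. The lowest was that of miR-34c-3p (-1.58), at 4.92 units in Fam222B-siRNA cells and 16 units in Control-siRNA cells, and both are printed in block 25. miR-322-3p, from the miR-16-related hairpin miR-322 on the X chromosome, was the brightest of these arms, at 31.4 units in Fam222B-siRNA cells and 37.3 units in Control-siRNA cells.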

How the data were processed

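Each of the 2 samples had 1 Toray 3D-Gene array, and groups follow the treatment in the labels. The deposited scanner files hold spot median intensity at 635 nm with no background subtracted, per the file headers; neither the scanner nor its software is named in the sources used here. A deposited table holds processed intensity of the same arrays; set against the spots, it is a straight line in them (Pearson r = 1), with backgrounds of 69.8 units for Fam222B-siRNA and 70.2 for Control-siRNA, factors of 3.69 and 3.40, and medians of 34.7 and 25 units. Its scale is linear, ratios run Fam222B-siRNA over Control-siRNA here, and it is not centred per miRNA. It served as an alternative.

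Net signal, detection, scaling and bounds were computed in Python 3.11.15 as described above; limma 3.58.1 (R 4.3.3) gave the normexp alternative. Spots flagged NG (1 on each array, no passenger arm) were called not detected. Spot SDs used 5 control probes of at least 100 net units (pooled CV 4.78% and 4.67%). The column of local background was used as an alternative only. Every passenger arm is named. The steps were tested on simulated data. Members, lists and alternatives were chosen with earlier results of these data known.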

Additional observations from a re-analysis of the deposited data

How the results depend on the processing

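The median level difference moved by less than the median spot SD (0.611) under each alternative run. The median ratio change also moved by less than its median spot SD (0.620), except with the local background column. Counts at 2-fold often moved. For the detection counts below, the share of all probes detected on each array was not computed. Detected on both arrays were 554 of all miRNAs at 5 SD and 1380 with the local background column. The number was 1089 with the No Probe background and 933 with blank spots of the same block. With detection at 5 SD, 10 passenger arms were detected in Fam222B-siRNA cells and 13 in Control-siRNA cells. Of 9 detected on both arrays, 0 were 2-fold higher, beside 1.44% of all miRNAs. The local background column gave 39 detected in Fam222B-siRNA cells and 40 in Control-siRNA cells. Of 37 detected on both arrays, 2 were 2-fold higher (miR-106b-3p among them) and 2 lower (miR-24-2-5p among them). Of all miRNAs, 9.35% were that much higher and 10.3% lower. For the ratios, this column was chosen after seeing the data. There 1 hairpin was 2-fold higher and 12 lower of 17, and the median change was -1.79. The share over all hairpins was not computed. The median log2 ratio was -0.10 in Fam222B-siRNA cells and 2.62 in Control-siRNA cells, and the cause was not tested. At 1.5-fold, 2 arms were higher and 4 lower, and the ratio was higher in 4 hairpins and lower in 2. With the No Probe background 33 arms were detected on each array. Of 29 detected on both, 3 were 2-fold higher, beside 3.49% of all miRNAs. The ratio was higher in 2 of 29 hairpins and lower in 2, with no share over all hairpins computed. Blank spots of the same block, an alternative chosen after seeing the data, gave 2 of 24 arms higher and 1 lower. Of all miRNAs, 2.89% were higher and 2.14% lower. The same background gave 1 of 24 hairpins each way. Unscaled arrays gave 1 of 24 arms 2-fold lower, beside 2.97% of all miRNAs. Spike scaling gave 2 of 24 higher, beside 3.41% of all miRNAs. miR-29b-1-5p lost its 2-fold call with normexp, an offset of 50 and quantile normalization (0 arms, and 0% of all miRNAs). Without blocks 17, 18, 25 and 26, 0 of 21 arms were 2-fold higher, since the probe of miR-29b-1-5p is left out, beside 0.762% of all miRNAs. Its log2 difference was 1.03 with the same block's blank spots, 0.36 with the local column and 0.13 with normexp. The median log2 guide to passenger ratio of 5.40 in Fam222B-siRNA cells and 5.62 in Control-siRNA cells became 2.28 and 2.27 with normexp, whose offset compresses it, and 4.39 and 4.57 with the authors' table, which has no bounds. Without the 4 blocks it was 6.21 in Fam222B-siRNA cells and 5.64 in Control-siRNA cells. With the No Probe background it was 5.86 in Fam222B-siRNA cells and 5.66 in Control-siRNA cells. Which array had the higher median turned under both, and by a small margin with normexp, and the cause was not tested. No paired analysis was possible because each group had 1 array. Signals under about 10 units limit what the dim arms can show.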
